A study of Mus musculus with 2 samples.

Results

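The peaks described here are the 313 YTHDF2 peaks that the authors' gene table marked as touching coding sequence and neither a start codon, a stop codon nor an untranslated region. They were taken from 314 rows of that table, with one entry for each peak name, and make up 313 of the 1541 peaks in the table and of the 9271 peaks in all. Each was counted under 1 gene, which gave 289 genes of the 1285 in the table; 3 of the peaks were also listed with a second gene, 2 of them over its 3′ UTR. The authors' own summary gave 351 peaks in coding sequence. The gene table held 352 rows with coding sequence and neither codon, and 38 of those rows also touched an untranslated region and were left out.

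The study asked where YTHDF2 binds in RNA of C2C12 myotubes. C2C12 is a mouse myoblast line, labelled wild-type, and the cells were kept in DMEM with 2% horse serum for 4 to 5 days until they had fused into multinucleated myotubes, with no further treatment. Lysate was incubated with an antibody against YTHDF2 and the bound RNA was recovered and sequenced (RNA immunoprecipitation, RIP), giving 1 RIP library. The other library was 1 input of the same cells, with the same genotype, treatment and batch label, and the IgG control named in the design text was not analysed here. Since each group held 1 library, no value has a replicate and no difference between RIP and input was tested. Every peak lies where the RIP library exceeded the input, because that is what the peak caller selected.

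YTHDF2 is a cytoplasmic reader of N6-methyladenosine (m6A), a methyl mark placed on adenosines of mRNA by a nuclear writer complex. Once bound, YTHDF2 brings deadenylating and decapping enzymes to the transcript and shortens its life. The mark sits most often in a short consensus, of which GGACU, written with T for U in DNA, is the most frequent form, and is dense in long internal exons and around stop codons. Mature mRNA in the cytoplasm has lost its introns, whose first bases are nearly always GT.

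Each peak carries 3 values that the results below rest on. The number of RIP fragments at the summit, the highest point of the peak, was read from the pileup. The input background is the scaled number of input fragments that the caller set against it. Fold enrichment is the ratio of RIP to background with 1 added to each. Intervals on a fold are exact Poisson intervals at 95% for the count of RIP fragments, with the background taken as fixed, and they cover counting error only. The total depth of either library is unknown.

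Among the 9 peaks of highest fold enrichment, 8 are shown as 30 bases of the gene's strand, 5′ to 3′, because they show what kinds of sequence lie under the strongest summits. The summit base is in capitals, except in Zfp729a, where the capitals mark a GGACT 51 bases downstream of the summit. Coordinates are mm10.
Gcc2, chr10:58278861-58278890, plus strand: agaagcacagatcttAgaagtccagaaagc
Depdc1a, chr3:159495683-159495712, plus strand: ccgagtgagccaaggCgcctagatttcgga
Cenpf, chr1:189680364-189680393, minus strand: atcggatgctctgaaAaccccactgaggag
Raph1, chr1:60503459-60503488, minus strand: atatttatcttttttTtttttttgtcctgt
Tbck, chr3:132694500-132694529, plus strand: gaagcatctgactggAgactgaagggccct
Zfp729a, chr13:67619951-67619980, minus strand: aagtgtgtggcaaGGACTtccatgtttcat
Parp4, chr14:56602999-56603028, plus strand: ctttctttctttcttTctttccttccttcc
Zc3h6, chr2:128997723-128997752, plus strand: gtgatgacaactttgGtaactatagtaacc

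The stretches of Gcc2, Cenpf, Zfp729a and Zc3h6 lie whole in coding exons. Those of Depdc1a, Raph1, Tbck and Parp4 lie in introns: the Raph1 summit stands in a run of T and the Parp4 summit in a repeat of C and T. A second set shows where the coding exon ends in 6 such peaks, all with the summit past that end. These 6 were chosen after the data were seen. Exon bases are in capitals and intron bases in lower case.
Depdc1a, chr3:159495552-159495581, plus strand: CGGGCCACCAAGCTGgtaagaacgtggagg
Raph1, chr1:60503503-60503532, minus strand: GCTCAAGTGAAAAAGgtgacttgtggctct
Parp4, chr14:56602893-56602922, plus strand: TTCCAGAGGCTGGAGgtaaggtggcttctt
Taok1, chr11:77571592-77571621, minus strand: CGTGTATTGAATTAGgtgagcattggtttt
Col5a2, chr1:45402064-45402093, minus strand: CCCACTGGCTTTCAGgtatgcactaattta
Micu2, chr14:57927182-57927211, minus strand: TAAAGAATTTCGAAGgtaaacataaagata

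The peaks were placed on GENCODE M21 gene models to see how far the label fits them. Only 149 of the 313 lay whole in 1 coding exon, or 47.6% (95% Wilson interval 42.1% to 53.1%). Another 77 had the summit in a coding exon and reached past its end, with a median of 69.5% of their bases in coding sequence. In 85 the summit lay outside every coding exon, and in all of these 85 it lay in an intron of the protein-coding transcripts of the gene the authors named. For 20 of the 85 that place is an exon of a transcript of the same gene that is not annotated as protein-coding, and for 2 it is an exon of another gene. The remaining 2 peaks were in Gm9843 and Gm7334, which have no coding model in this annotation. The summit was thus in a coding exon in 226 of 313 peaks, or 72.2% (67.0% to 76.9%), and in 71.2% with RefSeq models. The label fits the 149 peaks whole in 1 coding exon. It fits the 77 reaching past it only in part, with as little as 12.1% of the bases of a peak coding. The 85 with the summit outside every coding exon are named below as intron-summit peaks.

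Intron-summit peaks touched coding sequence with their edge, except 1 in Dimt1 that held no coding base in these models. A median of 22.6% of their bases was coding. Of the 84 for which a side could be given, 63 had the summit past the 3′ end of the exon and 21 before its 5′ end, so that 75% (64.8% to 83.0%) lay on the 3′ side. The summits past the 3′ end stood a median of 64 bases into the intron, with a range from 2 to 658, and those before the 5′ end stood a median of 78 bases away. All 63 exon ends were followed by GT, as in the 6 sequences above. The share on the 3′ side was 75% for the 40 peaks in genes on the plus strand and 75% for the 44 on the minus strand. It was not particular to these peaks. Among peaks outside the gene table that hold no coding base, 101 of the 135 with a summit within 200 bases of a coding exon were on its 3′ side, or 74.8%. Within 500 bases that share was 60.3% of 696 peaks, and within 1000 bases 55.5% of 1622.

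**Figure D1:**
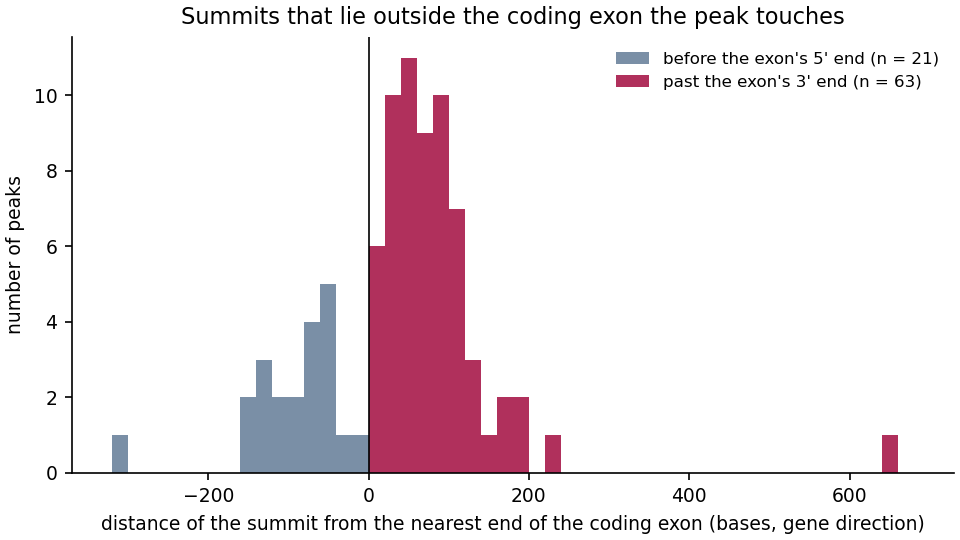
Distance of the summit from the nearest end of the coding exon that the peak touches, in bases along the gene, for the 84 intron-summit peaks with a side, in bins of 20 bases. The 63 summits past the 3′ end (red) gather close to the exon around a median of 64 bases, against 21 before the 5′ end (grey).

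Depdc1a had the highest fold of the intron-summit peaks. Its peak held 23 RIP fragments against a background of 1.08 and had a fold of 10.4 (6.78 to 15.4), yet 6.56% of its bases were coding and its summit stood 132 bases past the exon. Raph1, which encodes the actin regulator lamellipodin, had 33 fragments against 2.49 and a fold of 8.79 (6.14 to 12.2), with the summit 45 bases past the exon. Tbck, a TBC-domain kinase-like protein, had 19 fragments against 1.08, a fold of 8.69 (5.43 to 13.3) and a summit 60 bases past. Parp4, the vault poly(ADP-ribose) polymerase, had 36 fragments against 3 and a fold of 8.35 (5.92 to 11.5), 107 bases past. So 4 of the 8 peaks shown above have their summit in an intron.

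The pattern ran through genes of unlike roles. The summit of Taok1, a kinase upstream of p38 MAP kinases, stood 52 bases past the exon with a fold of 7.49 (5.21 to 10.5). That of Col5a2, a chain of type V collagen, stood 81 bases past with a fold of 7.41 (5.18 to 10.3). Micu2, a gatekeeper of mitochondrial calcium uptake, had its summit 64 bases past and a fold of 6.96 (4.11 to 11.2). Tbc1d23, a Golgi trafficking protein, had its summit 54 bases before the exon, with a fold of 7.36 (4.87 to 10.7).

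The 3 kinds of peak differed in how much input lay under them. Peaks whole in an exon had a median input background of 20 scaled fragments, with quartiles of 8 and 35. Peaks reaching past the exon had a median of 6, with quartiles of 3 and 15, and intron-summit peaks a median of 4, with quartiles of 2 and 9. The RIP fragments followed the same order, with medians of 64, 31 and 25. Fold enrichment ran the other way, at 2.99, 3.89 and 4.16. Over all backgrounds, the peaks whole in an exon thus had the most fragments and the lowest median fold. That order did not hold in every range of like background. Below 2 their median fold was 6.96, against 5.33 for peaks reaching past the exon and 5.55 for intron-summit peaks. From 4 to 8 the medians were 4.63, 3.98 and 3.55, and from 8 to 16 they were 3.54, 2.90 and 3.33. From 2 to 4 the peaks whole in an exon had the lowest, 5.06 against 5.43 and 5.99. They also had the lowest from 16 to 32, where 42 such peaks had 2.62, against 2.79 for 12 and 2.67 for 4. At 32 and above the medians were 2.28 for 46, 1.82 for 6 and 2.68 for 3. The ranges below 16 hold 8 to 27 peaks of each kind. Only 7 intron-summit peaks have a background of 16 or more, and the differences were not tested. Repeat-masked bases filled over 50% of the summit window in 2.01% of the peaks whole in an exon and in 14.1% of intron-summit peaks.

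Over all 313 peaks the median fold was 3.52 (95% interval of the median 3.31 to 3.77), with quartiles of 2.59 and 4.80 and a range from 1.34 to 12.6. A fold of 4 or more was reached by 126 peaks, or 40.3% (35.0% to 45.8%), against 59.6% of all peaks. The share was 64.9% in peaks outside the gene table. It was 35.0% in peaks over stop codons, 29.4% in those of 3′ UTRs only and 31.9% in those at 5′ ends. The value of 40.3% thus lay below that outside the table and above those of these 3 classes. By kind, the share was 30.9% in peaks whole in an exon, 45.5% in those reaching past it and 52.9% in intron-summit peaks. Peaks whole in an exon thus lay within the range of the 3 classes. A −log10 q of 5 or more was reached by 208, or 66.5% (61.1% to 71.5%), against 71.5% of all peaks. The median fold was 3.28 in peaks over stop codons, 3.14 in peaks of 3′ UTRs only, 3.19 in peaks at 5′ ends and 4.58 in peaks outside the gene table. Just inside the fold of 4 stood Arid4a at 4.00, and just outside it Ccnb2, cyclin B2, at 3.98.

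Fold and background moved against each other throughout the list. Part of this is built in, because the background is in the divisor of the fold. Only peaks that passed the caller are listed, which also limits the folds seen at each background. Below a background of 2, the 47 coding-sequence peaks had a median fold of 6.10 and none was under 3.93. From 4 to 8, the 56 peaks had a median of 4.05 and a lowest fold of 2.90. At 32 and above, the 57 peaks had a median of 2.23 and a lowest fold of 1.34. Peaks outside the gene table had medians of 6.10, 4.34 and 2.12 in the same ranges, and peaks over stop codons had 7.07, 4.79 and 2.27. At like background the coding-sequence peaks thus stood close to the peaks outside the table and under those over stop codons. These differences were not tested. Their lower share above a fold of 4 than outside the table went with a higher background, a median of 9 against 4.28. How far the background accounts for that share was not tested. The lowest background, 1.08, was shared by 17 of the 313 peaks, and for these the fold depends on the RIP fragments alone.

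**Figure D2:**
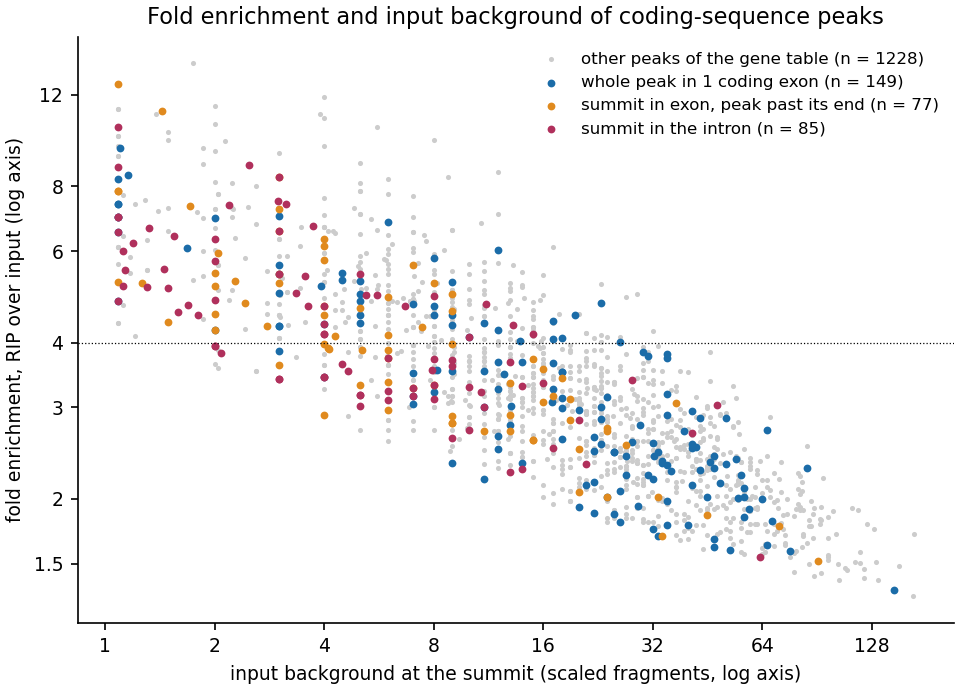
Fold enrichment of RIP over input against the input background at the summit, both on log axes, for 149 peaks whole in 1 coding exon (blue), 77 reaching past it (orange), 85 with the summit in an intron (red) and the 1228 other peaks of the gene table (grey). Fold falls as background rises in every kind of peak. Red points lie mostly at low background, around a median of 4, and blue points at higher background, around a median of 20. The dotted line marks a fold of 4.

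Psmg2, an assembly chaperone of the proteasome, had the highest fold. Its peak held 28 RIP fragments against a background of 1.08, giving a fold of 12.6 (8.52 to 18), with the summit in coding exon 5 of 7. Gcc2, a golgin of the trans-Golgi network, followed with 29 fragments against 1.43 and a fold of 11.1 (7.60 to 15.8), in exon 11 of 23. These peaks rest on few input fragments, and their intervals overlap.

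Cenpf, a centromere and kinetochore protein, had 21 fragments against 1.10 and a fold of 9.49 (6.05 to 14.3), whole in a coding exon of 286 bases. Zfp729a, a zinc finger protein, had 19 fragments against 1.15 and a fold of 8.41 (5.25 to 12.9). Its window matches a second place in the genome, so its reads could belong to a relative. In all, 10 of the 313 windows had such a second match, among them Zfp65, Mospd1, Trim12c, Ndufs5, Mrpl18 and Ywhaz, and 12 of the 313 summits lay in an exon of another gene.

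Zc3h6, a CCCH zinc finger protein, had 36 fragments against 3 and a fold of 8.35 (5.92 to 11.5). Cep290, a protein of the ciliary transition zone, had 18 against 1.08 and a fold of 8.26 (5.09 to 12.8), whole in an exon of 456 bases. Esf1, which acts in ribosomal RNA processing, and Ndufaf6, an assembly factor of respiratory complex I, each had 17 against 1.08 and a fold of 7.83 (4.76 to 12.2). Of the 12 peaks of highest fold, only those of Cenpf, Zfp729a and Cep290 lay whole in a coding exon.

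Ranking by q value picked other peaks, with more fragments and a lower fold. All 8 peaks of smallest q lay whole in 1 coding exon. Ccdc34 had the smallest, with 126 RIP fragments against 23 and a fold of 4.77 (3.98 to 5.67). Msantd4 had 151 fragments against 35 and a fold of 3.80 (3.22 to 4.46). Gm10131 had 148 against 35 and a fold of 3.73 (3.16 to 4.37), but its window has a second match in the genome.

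Irak1bp1, which binds the kinase IRAK1, had 86 against 12 and the highest fold of these 8, 6.03 (4.84 to 7.43). Zc3h13, a subunit of the m6A writer complex, had 131 against 30 and a fold of 3.84 (3.21 to 4.55). The peaks of 8030462N17Rik, Arid4a and another stretch of Cenpf had folds of 3.77, 4.00 and 4.52. Across these 8 peaks the lowest lower bound of a fold was 3.16.

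Summits were not spread evenly along the coding sequence. For the 226 peaks with the summit in a coding exon, the median position was 36.8% of the way from start to stop codon (31.2% to 46.1%). Among those of fold 4 or more it was 46.1%, at the upper limit of that interval. With the coding sequence cut into 3 equal parts, the 5′ part held 105 of the 226, or 46.5% (40.1% to 53.0%). The middle part held 67, or 29.6%, and the 3′ part 54, or 23.9%. A peak of the same width in the same transcript could take positions that touch neither codon nor an untranslated region. Of these open positions, 30.7% lie in the 5′ part, 39.4% in the middle and 29.9% in the 3′ part. The excess at the 5′ side was also seen by exon. In transcripts with several coding exons the first held 57 of 202 summits, or 28.2% (22.5% to 34.8%), against 11.2% of open positions. Internal exons held 53.5% against 71.5%, and the last coding exon 18.3% against 17.3%.

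**Figure D3:**
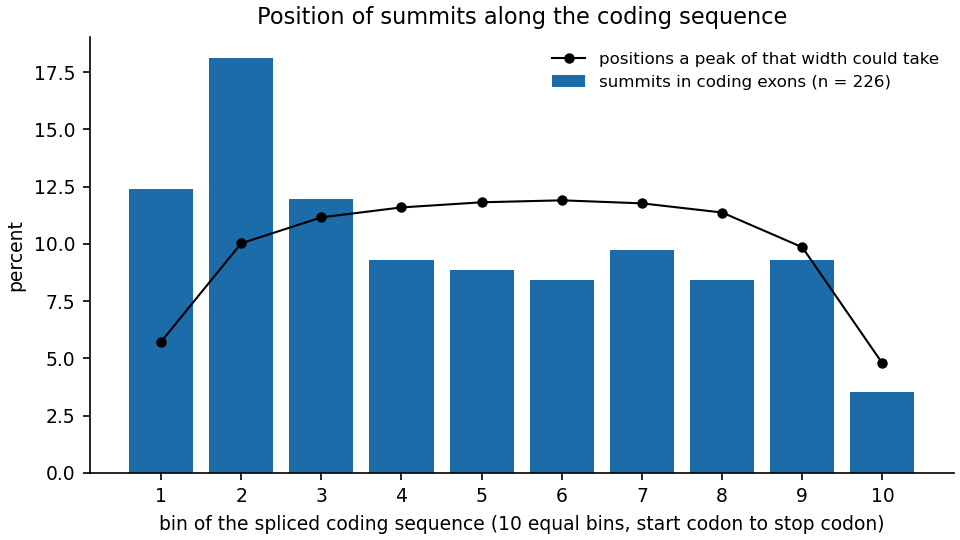
Share of the 226 summits in coding exons in 10 equal bins of the spliced coding sequence, in percent (bars). Black points give the share of positions that peaks of the same widths could take without touching either codon or an untranslated region. Bin 2 holds 18.1% of summits against 10.0% of open positions, and bins 4 to 8 all lie below the points.

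In bases, the median summit lay 622 from the start codon and 1002 from the stop codon. The nearest to a start codon were those of Ercc5, an excision repair nuclease, at 22 bases, and Col3a1, a chain of type III collagen, at 36 bases. Both peaks reached past their first coding exon, with 18.3% and 24.1% of bases coding and folds of 2.06 (1.53 to 2.73) and 1.52 (1.29 to 1.78). The nearest to a stop codon were those of Cgrrf1 at 81 bases, with a fold of 3.67 (2.81 to 4.70), and Gm9803 at 99 bases, with a fold of 2.61 (1.97 to 3.39).

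The coding exons under the summits were long. Their median length was 400 bases (336 to 462), against 130 for all 2666 coding exons of the same 210 transcripts and 218 when each coding base counted once. Among peaks of fold 4 or more it was 262. The 84 exons that intron-summit peaks touched, which are not among these, had a median of 107 bases. An exon of at least 186 bases, the width of the narrowest peak, lay under 179 of 226 summits, or 79.2% (73.4% to 84.0%), and such exons held 57.9% of coding bases. Exons of at least 1000 bases lay under 24.3%, close to their 26.7% of coding bases. The difference lay in exons of middle length: summits were scarce in short exons and about as frequent as the bases in the longest. Among internal exons the median under a summit was 215.5 bases, against 127 for all internal exons and 175 by base.

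**Figure D4:**
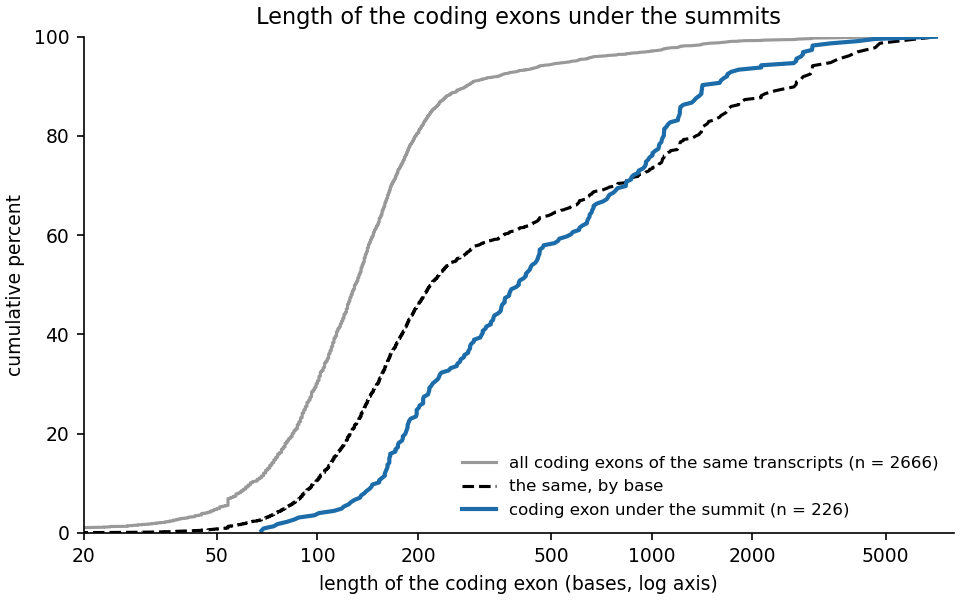
Cumulative percent of coding exons by length in bases (log axis) for the exon under each of 226 summits (blue), all 2666 coding exons of the same transcripts (grey) and the same exons weighted by their bases (dashed). The blue curve reaches 50% at about its median of 400 bases, the dashed at 218 and the grey at 130. From about 1000 bases the blue curve no longer lies below the dashed one.

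The longest exon under a summit was that of Zfp292, a zinc finger protein, with 7080 bases and a peak of fold 2.51 (2.08 to 3.01). Ankrd12 followed with an exon of 4658 bases and a fold of 2.64 (1.88 to 3.61). Cenpf had an exon of 3428 bases and a fold of 2.50 (1.76 to 3.45). Zfp644 had an exon of 3026 bases and a fold of 2.23 (1.77 to 2.77). These 4 peaks all stood below the median fold, on backgrounds from 12 to 41.0. Atrx, a chromatin remodeller, held the widest peak, 944 bases inside an exon of 3014, with 121 fragments against 47.0 and a fold of 2.29 (1.90 to 2.73).

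Genes with these peaks had long coding sequences, with a median of 1878 bases (1629 to 2184) over 287 genes against 1228.5 over the 974 other genes of the table with a coding model. Most had 1 such peak: 270 of 289 genes. Another 19 genes held 43 of the peaks. Another peak of the gene table, of any kind, lay in 67 of the 289 genes. Peaks outside the gene table lay in the bodies of 139 of the 289, with 623 such peaks in all, led by 21 in Col5a2. The other table genes had them in 410 of 996.

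Cenpf held 4 coding-sequence peaks, the most of any gene, spread over a coding sequence of 8991 bases. Their summits lay 687, 4600, 5583 and 6373 bases from the start codon, with folds of 9.49, 2.50, 2.07 (1.59 to 2.65) and 4.52 (3.69 to 5.48). All 4 lay whole in exons, the last 2 in the same exon of 2832 bases. The interval of the first lay above those of the other 3, on the lowest background, 1.10 against 12 to 26.

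Nipbl, the loader of cohesin onto chromatin, held 3 peaks with folds of 2.96 (2.31 to 3.74), 3.11 (2.43 to 3.93) and 2.77 (2.24 to 3.39), whose intervals overlap. Rock2, a kinase that acts on the actin cytoskeleton, also held 3, with folds of 1.70 (1.32 to 2.16), 3.72 (2.88 to 4.72) and, for an intron summit, 3.22 (2.33 to 4.33). Its paralogue Rock1 had 2 summits in neighbouring exons, 19 and 20 of 33, with folds of 6.32 (4.44 to 8.75) and 5.43 (3.30 to 8.50). Sh3glb1, endophilin B1, held 3 peaks, of which 2 had intron summits.

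Esf1 held a peak of 128 fragments and a fold of 3.06 (2.56 to 3.63) in exon 2, and the peak of fold 7.83 in exon 5 with 17 fragments. Kmt2c, a histone H3 lysine methyltransferase, had folds of 7.34 (4.68 to 11) and 2.46 (1.93 to 3.10) near the 3′ side of its coding sequence of 14712 bases. Ccdc88a, the actin-binding protein girdin, had 6.14 (4.29 to 8.54) and 4.06 (3.23 to 5.03). Hmgn5, a nucleosome-binding protein, had both peaks in 1 exon of 960 bases, with folds of 5.29 (3.65 to 7.43) and 3.26 (2.52 to 4.14). Strn3, a striatin, and Hnrnph1, a splicing regulator, each held 2 peaks, all with intron summits. In Esf1, Kmt2c, Ccdc88a and Hmgn5 the peak of higher fold had the lower background.

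**Figure D5:**
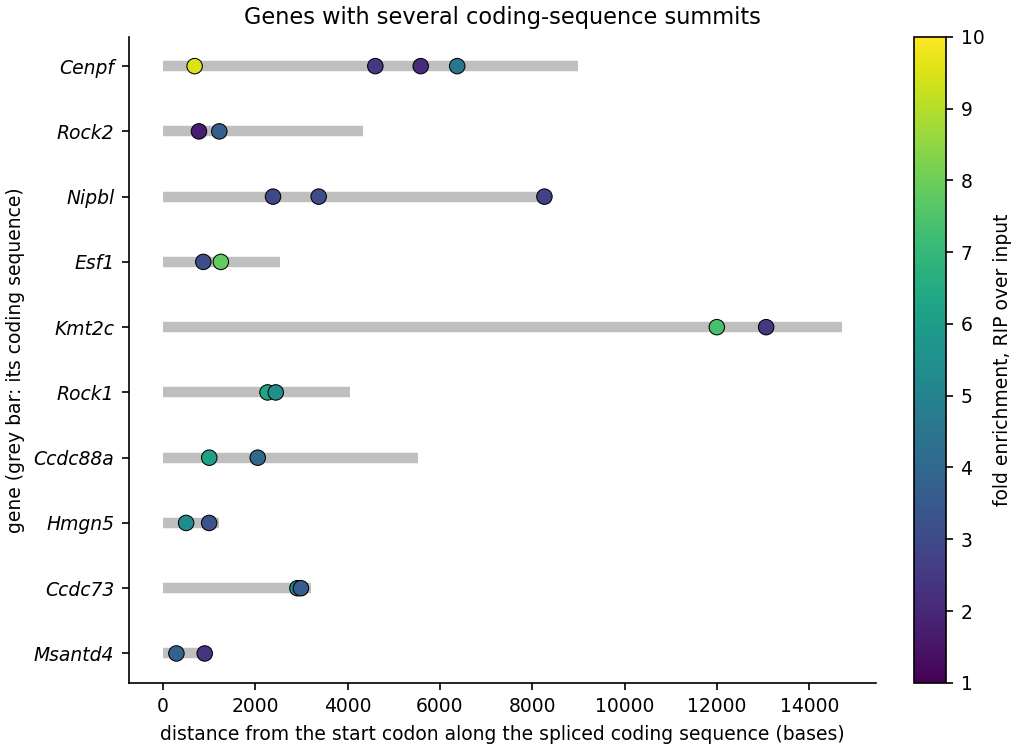
Summits along the spliced coding sequence, in bases from the start codon, for 10 genes with at least 2 coding-sequence summits. Each grey bar is the gene's coding sequence, each circle a summit in a coding exon, and its colour the fold enrichment of RIP over input. In Cenpf the first of 4 summits has the highest fold, 9.49. In Rock1 and Ccdc73 the summits lie in neighbouring exons, and the intron summit of Rock2 is not drawn.

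GGACT was searched on the gene's strand in the 150 bases around each summit. It was present in 43 of 313 windows, or 13.7% (10.4% to 18%). The share was 17.4% (12.2% to 24.3%) in peaks whole in an exon, 13.0% (7.21% to 22.3%) in those reaching past it and 8.24% (4.05% to 16%) in intron-summit peaks. It was 12.5% (11.2% to 13.9%) in 2213 windows of the same length laid end to end over coding exons of the same transcripts, and 12.2% over all 9271 peaks. The intervals overlap, and differences in GGACT were not tested. The wider consensus DRACH (A, G or T, then A or G, then AC, then A, C or T), which includes GGACT, was in 90.7% (87.0% to 93.5%) of all 313 windows and in 88.9% (84.2% to 92.4%) of the 226 with the summit in a coding exon. It was in 95% (94.0% to 95.8%) of the coding windows, above both of these intervals. In peaks whole in an exon DRACH was in 90.6% (84.8% to 94.3%), and that interval does overlap the one of the coding windows. On the opposite strand the share of GGACT was also 13.7%. A match is a description of the letters and does not show that the site is methylated or bound.

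Examples of the motif come from peaks of small q or from genes with several peaks. The capitals mark the GGACT nearest the summit. It lies 25 bases downstream of the summit in Parp14, 69 bases upstream in Msantd4 and 45 bases downstream in the Cenpf peak of fold 2.50. The stretches of Msantd4 and Cenpf lie whole in coding exons, and that of Parp14 does not. The Cenpf stretch holds a further GGACT near its end, left in lower case.
Parp14, chr16:35866115-35866144, minus strand: ggaaacctaggagGGACTcaaaaggacaca
Msantd4, chr9:4383898-4383927, plus strand: acctGGACTggcgcgcactcatgaaaagga
Cenpf, chr1:189656975-189657004, minus strand: cctgcccctgggaGGACTgttgagggactt

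Parp14, a poly(ADP-ribose) polymerase family member, had 31 RIP fragments against 4 and a fold of 5.78 (3.99 to 8.12), with 48.7% of the peak coding.

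Base composition under the summits differed from the average over coding windows of the same genes. The median GC content was 48.0% (46.7% to 49.3%). Each window with the summit in a coding exon was set against the other coding windows of its transcript where there were at least 3. G was higher under the summit in 135 of 196 peaks and lower in 61, with a median difference of 2.61 percentage points (1.52 to 3.33). A was lower in 135 and higher in 60, with a median difference of −2.59 points (−3.71 to −1.47). C and T differed by medians of 0.30 and −0.38 points, whose intervals include 0. The same held for peaks whole in an exon, where G was higher in 96 of 135. Summits also lay towards the 5′ side of the coding sequence, as given above, and the part of position in this difference was not tested.

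By function, the genes were set against lists of pathway members, and each list's share was read beside the 22.5% of all table genes that had a coding-sequence peak. These shares are counts with Wilson intervals and no test. Genes with a coding-sequence peak also had longer coding sequences, as given above, and the part of length in these shares was not tested. Chromatin regulators had such a peak in 10 of their 18 table genes, or 55.6% (33.7% to 75.4%). Besides Kmt2c and Arid4a, they were Smarca5, the ISWI remodelling ATPase, with a fold of 5.64, Kdm1a, a lysine demethylase, with 4.95, Baz1a with 4.72, Phf20l1 with 4.70, Phip with 3.23, Kdm5b with 2.71, Arid4b with 2.51 and Atrx with 2.29. In 8 of their 11 peaks the summit was in a coding exon.

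Genes of the cell cycle and mitosis had such a peak in 7 of 13 table genes, or 53.8% (29.1% to 76.8%). After Cenpf and Cep290 came Cenpe, a kinetochore motor, with a fold of 4.71, Top2b, a DNA topoisomerase, with 4.51, Ccnb2 with 3.98, Nipbl with 3.11 and Wapl, the cohesin release factor, with 1.85. All of their 12 peaks had the summit in a coding exon, 10 of them whole.

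DNA repair genes had one in 4 of 6: Rad50, part of the break-sensing MRN complex, with a fold of 5.21, Brca2, a recombination mediator, with 3.05, Fancm with 3.01 and Ercc5 with 2.06. Translation factors had one in 4 of 7, namely Eif4a2, Eif3a, Eif3e and Eif5b, with folds from 2.55 to 3.39. Cytosolic ribosomal proteins had one in 0 of 7 and genes of insulin, AKT and mTOR signalling in 0 of 6. Upper limits of those intervals are 35.4% and 39.0%, which do not lie below the 22.5% of all genes.

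Zinc finger proteins with a Zfp symbol had a coding-sequence peak in 13 of 43 table genes, or 30.2% (18.6% to 45.1%), close to the share of all genes. All 13 of their summits were in a coding exon, 12 peaks lay whole in it, and the median exon was 1412 bases. Zfp65 had a fold of 6.96, Zfp933 4.52, Zfp800 4.51 and Zfp946 4.23. In many such proteins a single last exon codes for the whole row of fingers. The windows of Zfp729a and Zfp65 have a second match in the genome.

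Lists of splicing, m6A and RNA decay genes stood near or below the share of all genes. Splicing and nuclear RNA-binding genes had such a peak in 6 of 30, or 20.0%, with Rbm26 at 3.16, Hnrnph1 at 3.03, Prpf4b, a spliceosomal kinase, at 2.96 and Pnn at 2.86. Of their 7 peaks, 3 had the summit in a coding exon. The m6A list had 1 of 5, Zc3h13. The deadenylation and decay list had 1 of 9, Cnot1, the scaffold of the CCR4-NOT deadenylase that YTHDF2 recruits, with 30 fragments against 9 and a fold of 2.80 (1.92 to 3.95). Its summit lay in an exon of 69 bases, and 32.3% of the peak was coding.

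Proteasome genes had one in 2 of 11, Psmg2 and Psmd7, with folds of 12.6 and 3.91, and ubiquitin genes in 3 of 18: Itch, a ligase, with 5.42, Ube2b, a conjugating enzyme, with 4.16 and Rnf6 with 1.61. The summits of Itch and Ube2b were in introns. Nuclear pore genes had one in 2 of 7, Tpr with a fold of 4.96 and Nup214 with 2.26. Golgi and vesicle genes had one in 4 of 14: Gcc2, Eea1, an endosomal tether, with 6.55, Trip11, a golgin, with 3.51 and Sec63 with 2.54. Mitochondrial proteins had one in 5 of 14, led by Trmt10c, a subunit of mitochondrial RNase P, with 5.23 and Mrpl1, a mitochondrial ribosomal protein, with 4.97. All 5 mitochondrial summits were in coding exons.

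In the matrix and MAP kinase lists most summits were in introns, as they were in the ubiquitin and splicing lists. Extracellular matrix genes had such a peak in 3 of 8, Col5a2, Postn and Col3a1, with folds of 7.41, 6.64 and 1.52, and 1 of these 3 summits was in a coding exon. MAP kinase and RAS genes had one in 3 of 7, Taok1, Egfr, a receptor tyrosine kinase, and Rasa1, a RAS GTPase-activating protein, with folds of 7.49, 5.55 and 1.34, and 1 of these 3 summits was in a coding exon. Rasa1 had the lowest fold of all 313 peaks, on 219 fragments against 147. Actin and motor genes had one in 4 of 16: Rock1, Rock2, Myo9a with 3.51 and Ktn1 with 2.57. TGF-beta genes had 1 of 7, Tgfb2, with 10 fragments, a fold of 4.80 (2.55 to 8.43) and an intron summit.

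Of muscle genes, the sarcomere list had 1 of 7 table genes with a coding-sequence peak, or 14.3% (2.57% to 51.3%), Neb, which encodes nebulin, with a fold of 3.44 (2.12 to 5.32) and the summit 50 bases past an exon. The list of myogenic regulators had 1 of 4, or 25% (4.56% to 69.9%), Nfatc3, with 15 fragments against 4 and a fold of 2.90 (1.71 to 4.65). Of the cell type markers, 5 of 24 myotube markers were in the gene table and 1 of them, Neb, had a coding-sequence peak. Of 16 myoblast markers 2 were in the table and 1, Hgf, had such a peak, with an intron summit. Among neuron markers 2 of 16 were in the table and Nefl had a peak of fold 2.00 (1.68 to 2.35), while markers of hepatocytes, immune cells, endothelial cells and adipocytes were not in the table. A peak list holds no expression level, so these counts do not check the cell type.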

How the data were processed

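Per the labels' protocols, RNA bound to YTHDF2 and input RNA of C2C12 myotubes were sequenced, 1 library each. Per the labels' design text, Bowtie placed reads on mm10 and MACS called peaks on the RIP library over input. Bowtie does not itself split a read across an intron. Whether the library kept strand is not given in the sources used here. Per the file headers, the deposited peak list gives pileup signal, fold enrichment as a linear ratio, and −log10 of the p-value and q-value. These scores are the authors' and served only to describe, rank or filter peaks. The authors' deposited tables also give how many peaks, and what percent, fall on each element, and pathway tables with a p-value.

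Pileups were whole multiples of 0.9, read as 1 RIP fragment each. The background is (pileup + 1) / fold − 1, and the lowest value was 1.08. Its scale is the caller's. Peaks were placed on the protein-coding transcript of longest coding sequence that holds the summit (GENCODE M21, GRCm38, the same build as mm10). Open positions are coding bases of the transcript on which the summit could stand. A peak of the same width and summit offset, laid there along the genome, touches neither codon nor an untranslated region. Coordinates are 1-based. Sequences and the windows of 150 bases come from the RefSeq GRCm38 assembly. A second genome match covers at least 90% of a window (minimap2 2.31). Python 3.11.15, scipy 1.17.1 and pandas 2.3.3 were used, and steps were tested on simulated data. With 1 library per group no test over samples was possible. Intervals of shares are Wilson and those of medians use order statistics, both at 95%, and they treat peaks as independent.

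Named genes are the 12 peaks of highest fold, the 8 of smallest q, genes with several peaks, list members by fold, the 3 widest peaks, the 5 in the longest exons, those nearest each codon and those at the threshold; some that this rule names are not reported here. Of the chromatin and cell cycle lists every gene with a peak is named. Genes with a second match, Tbc1d23 and, for the exon ends, Taok1, Col5a2 and Micu2 were picked after their values were seen. The members and lists were chosen with earlier results of these data known.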

Additional observations from a re-analysis of the deposited data

How the results depend on the processing

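For 10 results, 80 alternatives were computed, of which 63 stayed within the main value's interval, or within 1.5 times a count. Peaks of fold 4 or more numbered 126, with a median exon of 262 bases, 36.5% whole in an exon, 64.3% with the summit in a coding exon and a median GC content of 46.3%. Peaks with −log10 q of 5 or more numbered 208, with a median fold of 3.85, 49.0% at a fold of 4 or more and 54.3% whole in an exon. Requiring the whole peak in 1 coding exon gave 164 peaks of the table. With only summits in a coding exon, which was added after seeing the data, the median fold was 3.27 and 65.9% lay whole in an exon. Against the median fold of all peaks as the threshold, 32.3% passed. GGAC, which GGACT contains, was in 38.3% of windows, and DRACH in 90.7%. GGACT was in 22.0% of whole peaks and in 8.95% of windows of 100 bases. The median position along the coding sequence and the share of intron summits on the 3′ side stayed within their intervals under every alternative run. For peaks of fold 4 or more, though, the median position was 46.1%, at the upper limit of its interval. Also added after seeing the data were RefSeq coding exons and leaving out windows with a second genome match. No paired analysis was possible because each group held 1 library. At the lowest background the depth of the input limits the fold.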

Other observations

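In the authors' deposited table of Gene Ontology terms, 22 of the 62 peak genes under chromosome organization had a coding-sequence peak, or 35.5%, beside 22.5% of all table genes. Under DNA repair 14 of 37 did, or 37.8%. For ATP binding the share was 32 of 91, or 35.2%, while for RNA binding it was 17 of 74, or 23.0%, and for mRNA processing 10 of 40, or 25%. Terms overlap in their genes and were not tested against each other, and the part of coding length in these shares was not tested. In the authors' deposited table of KEGG pathways, coding-sequence peaks lay in 2 of 20 genes of ubiquitin mediated proteolysis, 6 of 26 of the actin cytoskeleton and 7 of 23 of focal adhesion.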
